A study of Mus musculus with 6 samples.

Results

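The genes described are the nuclear genes of the last steps of mitochondrial respiration: complex III, cytochrome c, complex IV and ATP synthase. They were chosen by name, as every listed gene whose symbol starts with Uqcr, Cox4, Cox5, Cox6, Cox7, Cox8 or Atp5, together with Cyc1 and Cycs, and 46 of the 12966 listed genes matched. Of these, 9 belong to complex III, 1 is cytochrome c, 16 carry a complex IV symbol, 17 carry an ATP synthase symbol and 3 were kept outside those groups. The names also bring in genes that are no subunits: Cox4nb is an older name of a subunit of a membrane complex of the endoplasmic reticulum, Cox7a2l acts in the assembly of respiratory supercomplexes, Atp5s and Atp5sl are ATP synthase subunits by symbol only, and Atp5l-ps1 and Atp5l2 are copies of Atp5l. Of the 46, 45 averaged 1 FPKM or more across all libraries and entered the test, and Atp5l2 did not.

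RNA was sequenced from brown adipose tissue of male C57BL/6J mice aged 10 weeks. BKO (3 libraries) carried Bscl2f/f and Ucp1Cre, which is active in brown adipocytes, and Ctrl (3 libraries) carried Bscl2f/f without the Cre. Both groups therefore carry the floxed Bscl2 allele, and what the Cre itself does and what loss of Bscl2 does cannot be told apart. Bscl2 is the gene of seipin, which helps to form lipid droplets at the endoplasmic reticulum. The labels do not say that the libraries come from separate animals, so the spread behind each p-value is that between these libraries only and may be technical. Values are FPKM, that is, fragments per length of transcript and per size of the library. They are no counts and the depth is unknown. Levels of different genes are compared only as listed FPKM, and how well these hold between transcripts of different length was not tested.

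Complex III takes electrons from ubiquinol and hands them to cytochrome c, a small soluble protein. Complex IV, cytochrome c oxidase, takes them from cytochrome c and passes them to oxygen, and both complexes pump protons out of the mitochondrial matrix. ATP synthase lets the protons back in and makes ATP. Brown adipocytes are packed with mitochondria, and in them Ucp1 lets protons return without making ATP, so that the energy is released as heat. Several complex IV subunits exist as a ubiquitous form and as a form of heart and skeletal muscle, and brown fat is known to express some of the muscle forms.

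The promoters of the 2 isoform pairs on which the results turn are shown first. Each is the RefSeq window from 250 bases before to 50 bases after the gene's start, on the gene's own strand and on build GRCm38.p6. The windows lie at chr7:30183921-30184220 on the plus strand for Cox7a1, at chr9:79759804-79760103 on the minus strand for Cox7a2, at chr7:140900397-140900696 on the minus strand for Cox8b and at chr19:7217567-7217866 on the minus strand for Cox8a. Capitals mark a match, on either strand, to any of 5 short motifs of factors known from mitochondrial genes or of the basal promoter (the cores of NRF-1, ETS, YY1 and ERR sites and the TATA box), which are spelled out with their frequencies after the sequences.
Cox7a1: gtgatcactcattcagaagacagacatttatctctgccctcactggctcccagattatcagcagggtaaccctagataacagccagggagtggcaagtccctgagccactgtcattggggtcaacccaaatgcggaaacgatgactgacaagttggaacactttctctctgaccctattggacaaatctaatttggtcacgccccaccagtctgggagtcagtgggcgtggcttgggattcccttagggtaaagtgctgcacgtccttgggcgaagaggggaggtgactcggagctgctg
Cox7a2: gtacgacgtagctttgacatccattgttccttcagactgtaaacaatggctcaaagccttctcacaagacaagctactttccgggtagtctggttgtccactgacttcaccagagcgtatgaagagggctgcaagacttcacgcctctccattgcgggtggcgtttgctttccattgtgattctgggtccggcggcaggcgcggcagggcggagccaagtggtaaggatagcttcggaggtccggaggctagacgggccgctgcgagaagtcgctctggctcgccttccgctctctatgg
Cox8b: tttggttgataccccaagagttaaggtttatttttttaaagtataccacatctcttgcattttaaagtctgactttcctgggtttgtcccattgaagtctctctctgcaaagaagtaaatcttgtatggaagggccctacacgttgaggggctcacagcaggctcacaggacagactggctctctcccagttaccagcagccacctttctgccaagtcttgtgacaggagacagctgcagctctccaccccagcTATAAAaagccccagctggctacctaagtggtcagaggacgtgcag
Cox8a: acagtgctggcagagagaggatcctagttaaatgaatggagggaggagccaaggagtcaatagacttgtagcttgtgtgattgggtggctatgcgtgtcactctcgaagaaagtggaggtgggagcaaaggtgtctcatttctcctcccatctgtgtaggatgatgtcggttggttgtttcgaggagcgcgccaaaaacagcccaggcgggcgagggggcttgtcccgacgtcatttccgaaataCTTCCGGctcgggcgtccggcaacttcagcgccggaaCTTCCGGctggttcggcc
Cox8b, the muscle form, holds 1 match to the TATA box letters, which lies after the annotated start of the gene. Cox8a, the ubiquitous form, holds the ETS core at 2 places, both on the other strand (CTTCCGG), the latter of them after the annotated start. Neither Cox7a1 nor Cox7a2 holds any of the 5 sequences in this window, which says nothing about factors that may bind there. Windows were listed for 34 of the 46 genes. The ETS core, CCGGAAG, was found in 10 of these 34 windows (29.4%), against 21.6% of the 8580 tested genes with a window and 8.86% of all 32851 windows. The NRF-1 core, TGCGCA, was in 6 (17.6%), against 16.9% of tested genes and 7.76% of all windows. None of these shares was tested. The YY1 core, AAGATGG, was in 5 (14.7%), against 8.81% of tested genes and 6.34% of all windows. The TATA box, TATAAA, was in 2 (5.88%), against 8.57% of tested genes and 13.6% of all windows. The ERR site, TCAAGGTCA, was in 1, Atp5g3, against 0.373% of tested genes and 0.423% of all windows. Overlapping matches of different motifs were allowed. A match is a description of letters and not a binding site.

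Bscl2 had 16.5, 16.9 and 18.9 FPKM in the BKO libraries, against 116, 104 and 106 FPKM in the Ctrl libraries. Measured as log2(FPKM + 1), Bscl2 fell by 2.57 in BKO with an SE of 0.0788 (limma, adjusted p = 3.95e-05 by Benjamini-Hochberg), so the groups stand as labelled. Summed FPKM of 10 brown adipocyte markers ranged between 5025 and 5195 in BKO and between 4901 and 6049 in Ctrl, and none of them was listed at 0. Ucp1 makes up the largest share of that sum, with 2979, 2975 and 2943 FPKM in BKO, against 2484, 2570 and 3498 FPKM in Ctrl. Marker by marker, 3 log2 differences were positive and 7 negative with a median of -0.15, and none passed limma's test. At an unadjusted p below 0.05, 1 of the 10 was higher and 3 were lower, against 6.63% and 3.52% of all genes tested. Cidea, a lipid droplet protein of brown adipocytes, had 1239, 1378 and 1329 FPKM in BKO, against 1564, 1478 and 1553 FPKM in Ctrl. Of 17 macrophage markers 16 were listed, none at 0. Their sum was higher in every BKO library (182 to 225 FPKM) than in any Ctrl library (62.4 to 98.9 FPKM). Of the 14 tested markers 5 passed an adjusted p of 0.05, all higher in BKO, against 0.158% of all genes tested. Of 20 skeletal muscle markers 15 were listed, none at 0, with sums of 199 to 497 FPKM in BKO and 157 to 732 FPKM in Ctrl. In tissue RNA, fewer cells of a type and less RNA per cell cannot be told apart. The library BKO-3 stands apart: its mitochondrial tRNA genes sum to 2090094 FPKM, against 504923 to 1044063 FPKM in the other 5 libraries, and it alone holds no value between 0 and 0.486 FPKM, so the table looks filtered on it. The 6 mitochondrially encoded subunits of the same complexes, mt-Cytb, mt-Co1, mt-Co2, mt-Co3, mt-Atp6 and mt-Atp8, were listed at 0 in every library, which can be a failed estimate. The mitochondrially encoded genes mt-Nd1, mt-Nd2 and mt-Nd3 were listed at 39415 to 55409 FPKM in the same libraries. The reason for the 0 values was not tested, and only the nuclear genes are described.

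None of the 45 tested genes passed limma's test in either direction. Over all 11397 genes tested, 0.158% were called higher and 0.00877% lower in BKO at an adjusted p below 0.05. At an unadjusted p below 0.05, 2 of the 45 genes (Cox7a1 and Atp5l-ps1) were higher, against 6.63% of all genes tested, and 0 were lower, against 3.52%. Over all genes this meant 756 higher and 401 lower, but 690 higher and 561 lower after median ratio rescaling and 640 higher and 624 lower after quantile normalization. As deposited, the 320 tested genes that averaged 200 FPKM or more held 24 higher and 21 lower at that threshold. All 3 BKO libraries lay above all 3 Ctrl libraries for 5 genes (Cox7a1, Cox8b, Atp5j2, Atp5h and Atp5sl), against 9.06% of all genes tested, and below them for 1 gene (Cox4nb), against 6.82%. These counts lie near the shares of all genes. The log2 difference, BKO minus Ctrl, was positive for 28 genes and negative for 17, with a median of 0.03, against 0.01 over all genes tested and 0.03 over the 320 tested genes that averaged 200 FPKM or more. Scaling each library to a sum of 1000000, which shifted the median of all genes by -0.15, gave medians of -0.19 for complex III, -0.14 for complex IV and -0.16 for ATP synthase, so no direction is read from these signs. Before that scaling BKO-3 summed to 2808874 FPKM, 2090094 of it in mitochondrial tRNA genes, against 1119228 to 1617963 FPKM in the other libraries. Dividing by these sums therefore lowers the values of BKO-3 the most.

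At the deposited scaling the differences were small. Of the 46 genes, 38 averaged 10 FPKM or more, and for 33 of these 38 the BKO mean was within 10% of the Ctrl mean. The 95% intervals of their log2 differences ran between -0.31 (Atp5g3, a ratio of 0.808) and 0.50 (Cox7a1, a ratio of 1.42), and without Cox7a1 the upper bound was 0.41 (Uqcrh, a ratio of 1.33). The interval left out 0 for 1 of the 38, Cox7a1. With each library scaled to a sum of 1000000 the log2 differences of the 38 genes lay lower, between -0.28 (Cox6a1) and 0.11 (Cox7a1), so the bounds hold only for the values as deposited. The other 8 genes averaged under 10 FPKM and were measured less precisely.

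**Figure D1:**
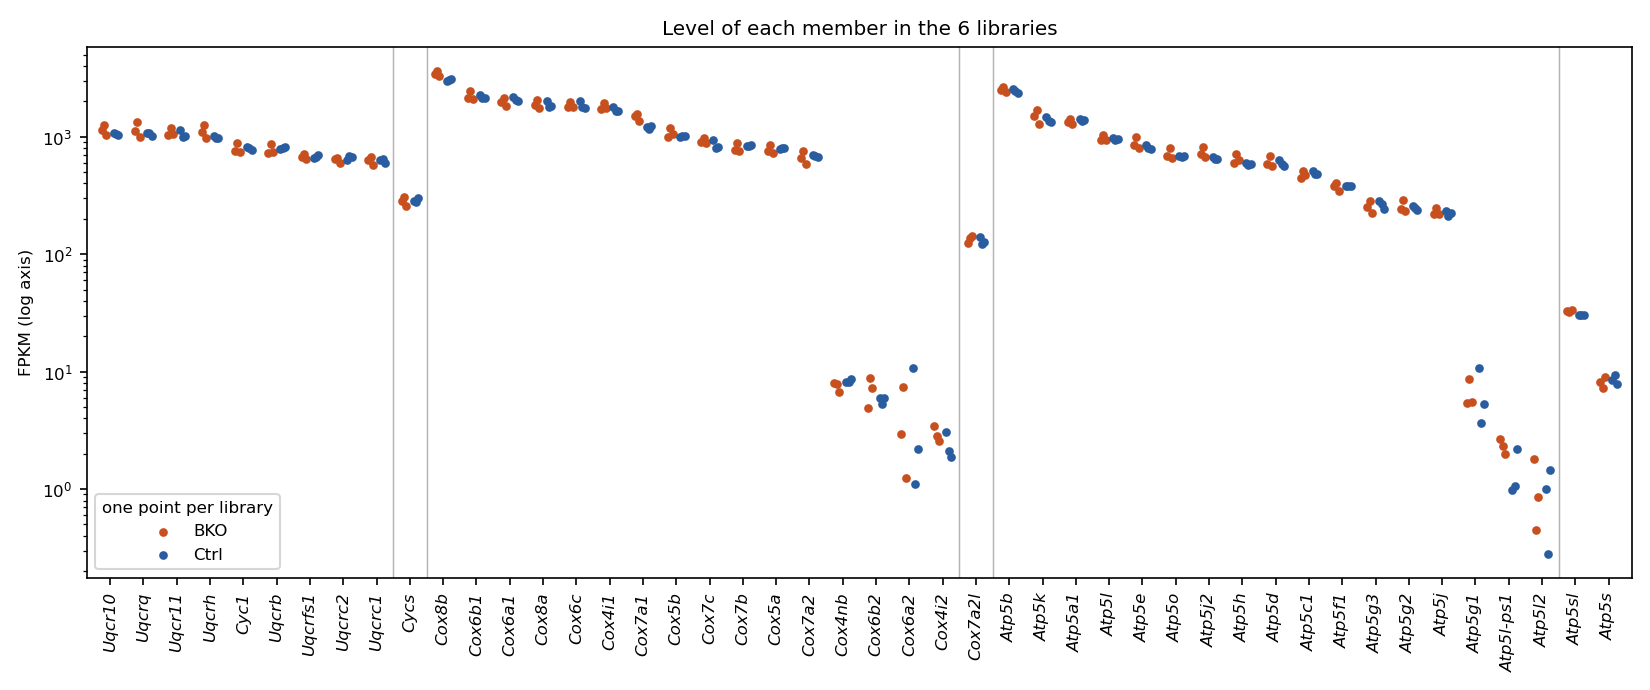
FPKM of each of the 46 genes in each library on a log axis, with BKO points left of Ctrl points, grouped by complex and ordered by mean. The 38 abundant genes lie from 31.6 FPKM (Atp5sl) to 3243 FPKM (Cox8b) on average, and for 33 of them the BKO mean lies within 10% of the Ctrl mean. Cox7a1 (1484 FPKM in BKO and 1202 FPKM in Ctrl) stands furthest apart among the 38.

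**Figure D2:**
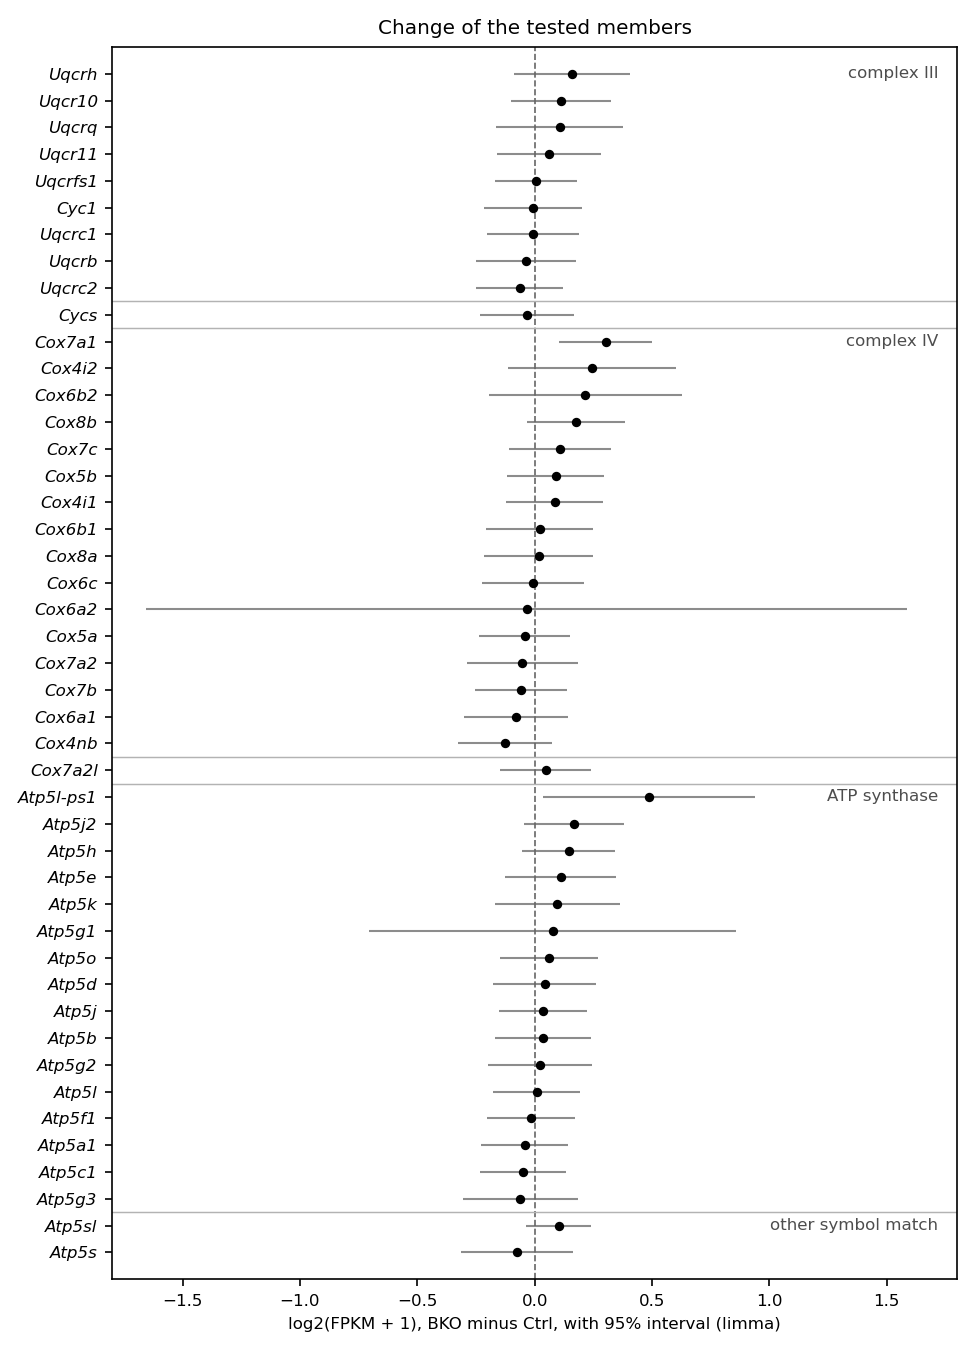
Difference of log2(FPKM + 1), BKO minus Ctrl, for the 45 tested genes, with the 95% interval from limma. Cox7a1 and Atp5l-ps1 have intervals that leave out 0, and Cox6a2 and Atp5g1 have the widest intervals among the genes drawn.

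The 9 complex III genes showed no difference that passed the test. Their means lay close together, between 624 FPKM (Uqcrc1) and 1103 FPKM (Uqcr10), a 1.77-fold range. The log2 differences were positive for 5 and negative for 4, with a median of 0.01, and the BKO mean differed from the Ctrl mean by between -4.34% (Uqcrc2) and 12.4% (Uqcrh). Their groups overlapped for all 9.

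Cyc1 and Uqcrfs1 carry the redox groups of the nuclear part of complex III: cytochrome c1, which reduces cytochrome c, and the Rieske iron-sulfur protein. Cyc1 had 753, 880 and 745 FPKM in the BKO libraries, against 814, 802 and 766 FPKM in the Ctrl libraries. Uqcrfs1 had 678, 719 and 646 FPKM in BKO, against 665, 666 and 701 FPKM in Ctrl. In both genes BKO-2 was highest and BKO-3 lowest, with the Ctrl values between them. The log2 differences were -0.01 for Cyc1 (adjusted p = 0.989) and 0.01 for Uqcrfs1 (adjusted p = 0.987).

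Uqcr10, Uqcrq and Uqcrh are small subunits, of which Uqcrh is the hinge protein that helps complex III meet cytochrome c. Uqcrh had 1106, 1262 and 976 FPKM in the BKO libraries, against 1016, 975 and 985 FPKM in the Ctrl libraries. BKO-2 was the highest library and BKO-3 lay among the Ctrl libraries. The log2 difference of 0.16, or -0.04 with each library scaled to a sum of 1000000, was the largest in complex III (95% interval -0.09 to 0.41, adjusted p = 0.659). Uqcr10 had 1148, 1254 and 1039 FPKM in BKO, against 1080, 1050 and 1044 FPKM in Ctrl, and Uqcrq had 1121, 1325 and 992 FPKM in BKO, against 1083, 1083 and 1007 FPKM in Ctrl. In both, BKO-2 was again highest and BKO-3 lowest of the 6 libraries.

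Uqcrc2, a core subunit that faces the matrix, had 645, 663 and 594 FPKM in BKO, against 628, 683 and 677 FPKM in Ctrl. Uqcrb, which lies beside the quinone binding region, had 724, 872 and 748 FPKM in BKO, against 784, 796 and 818 FPKM in Ctrl. These had the most negative log2 differences of the complex, -0.06 and -0.04, and their groups overlapped. Cycs, cytochrome c itself, had 284, 307 and 256 FPKM in the BKO libraries, against 284, 280 and 300 FPKM in the Ctrl libraries, with a log2 difference of -0.03 (adjusted p = 0.934). BKO libraries held both the highest and the lowest value of Cycs.

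Complex IV held the gene with the lowest p among all 46. Cox7a1, the heart and skeletal muscle form of subunit 7A, was higher in every BKO library than in any Ctrl library, while Cox7a2, the ubiquitous form, was not. No complex IV gene passed the test. The 12 abundant genes of the complex lay between 676 FPKM (Cox7a2) and 3243 FPKM (Cox8b) on average, a 4.80-fold range. Over the 16 tested genes with a complex IV symbol, Cox4nb included, 9 log2 differences were positive and 7 negative, with a median of 0.02.

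Cox7a1 had 1512, 1568 and 1372 FPKM in the BKO libraries, against 1212, 1161 and 1233 FPKM in the Ctrl libraries. Even the lowest BKO library, BKO-3, lay above the highest Ctrl library, Ctrl-3. Cox7a1 averaged 1484 ± 101 FPKM in BKO and 1202 ± 37.2 FPKM in Ctrl (SD, n = 3 each), a ratio of 1.24. On the log2(FPKM + 1) scale the difference was 0.30 (SE 0.0849, 95% interval 0.10 to 0.50), with an unadjusted limma p of 0.00852. The Benjamini-Hochberg adjusted p was 0.299, since Cox7a1 ranked 325 among all genes tested by p, so this difference did not pass the test. With each library scaled to a sum of 1000000 the log2 difference was 0.11 (adjusted p = 1).

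Cox7a2 had 661, 751 and 585 FPKM in the BKO libraries, against 703, 688 and 669 FPKM in the Ctrl libraries. Its groups overlapped, and the log2 difference was -0.05 (adjusted p = 0.901). Cox7a1 and Cox7a2 take the same place in the complex, and a factor that multiplies a whole library leaves the share of one in the sum of both as it is, though quantile normalization does not. Cox7a1 made up 69.6%, 67.6% and 70.1% of the summed FPKM of the pair in the BKO libraries, against 63.3%, 62.8% and 64.8% in the Ctrl libraries. All BKO shares lay above all Ctrl shares, the log2 ratio of the 2 genes differed by 0.35, and an exact two-sided permutation test gave p = 0.1, the smallest value it can give for 3 against 3 libraries. Set against Cox4i1, a choice made after the values were seen, the log2 ratio of Cox7a1 differed by 0.22 (exact two-sided permutation p = 0.1). The macrophage marker sum also kept the groups apart, and its part in the Cox7a1 values was not tested.

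Cox8b, the muscle form of subunit 8, had the highest mean FPKM of the 46 genes. It had 3413, 3619 and 3294 FPKM in the BKO libraries, against 3010, 3021 and 3102 FPKM in the Ctrl libraries. The groups did not overlap. The means were 3442 ± 165 FPKM in BKO and 3044 ± 50.4 FPKM in Ctrl (SD, n = 3 each), and the log2 difference of 0.18 had a 95% interval of -0.03 to 0.38 (adjusted p = 0.563). Under quantile normalization and with each library scaled to a sum of 1000000, that difference was -0.01 and -0.02. Cox8a, the ubiquitous form, had 1869, 2047 and 1768 FPKM in BKO, against 2031, 1776 and 1811 FPKM in Ctrl, and its groups overlapped. Set against Cox4i1, again a choice made after the values were seen, the log2 ratio of Cox8b differed by 0.09 (exact two-sided permutation p = 0.2). The groups overlapped in that ratio.

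Cox8b made up 64.6%, 63.9% and 65.1% of the summed FPKM of Cox8b and Cox8a in the BKO libraries, against 59.7%, 63.0% and 63.1% in the Ctrl libraries. The lowest BKO share lay just above the highest Ctrl share, and Ctrl-1 stood below the other Ctrl libraries. The log2 ratio differed by 0.16 (exact two-sided permutation p = 0.1), and by -0.083 under quantile normalization. Leaving out 1 library moved it between 0.09 (without Ctrl-1, exact permutation p = 0.2) and 0.20 (without Ctrl-3). For both subunits the muscle form thus had the higher FPKM in every library of both groups.

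**Figure D3:**
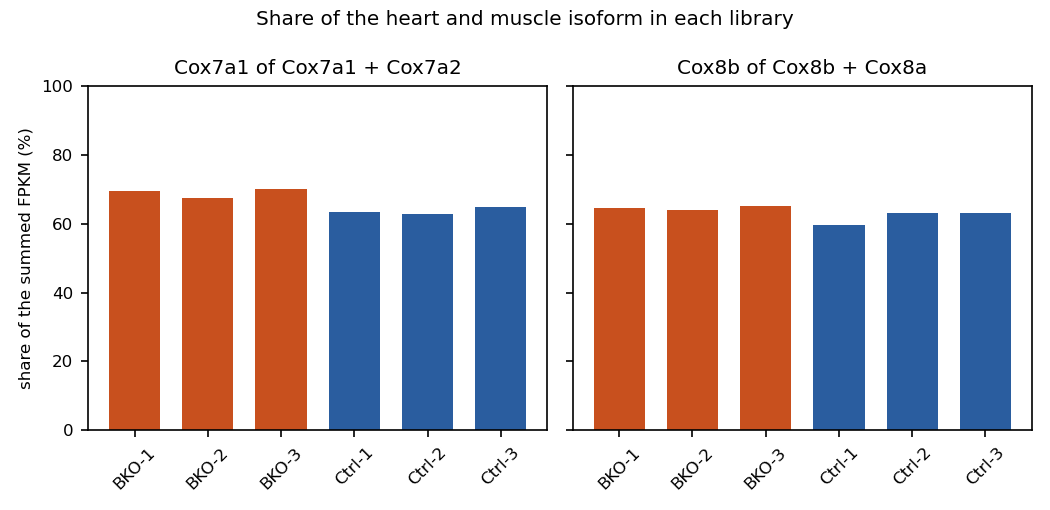
Share of the heart and muscle isoform in the summed FPKM of its pair, in percent, with 1 bar per library and BKO bars left of Ctrl bars. Cox7a1 takes 67.6% to 70.1% in BKO and 62.8% to 64.8% in Ctrl, and Cox8b takes 63.9% to 65.1% in BKO and 59.7% to 63.1% in Ctrl.

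The other muscle form, Cox6a2, was near the low end of the table. Cox6a2 had 2.94, 7.36 and 1.25 FPKM in the BKO libraries, against 10.8, 1.10 and 2.21 FPKM in the Ctrl libraries. Its ubiquitous counterpart Cox6a1 had 1980, 2124 and 1814 FPKM in BKO, against 2188, 2052 and 2004 FPKM in Ctrl, so that Cox6a2 made up at most 0.491% of the pair. The log2 ratio of Cox6a2 to Cox6a1 differed by 0.05 with an exact two-sided permutation p of 1. The 6 libraries fell in the same order for Cox6a2 as for the summed skeletal muscle markers: Ctrl-1, BKO-2, BKO-1, Ctrl-3, BKO-3 and Ctrl-2, high to low. Those markers summed to 241, 497 and 199 FPKM in BKO, against 732, 157 and 223 FPKM in Ctrl. For Cox7a1 the order was BKO-2, BKO-1, BKO-3, Ctrl-3, Ctrl-1 and Ctrl-2. With a muscle score as a covariate the log2 difference of Cox7a1 was 0.30 (limma, adjusted p = 0.332). The muscle markers had a median log2 difference of 0.02 between the groups, so this covariate could hardly move a group difference. The part of skeletal muscle RNA in the values of Cox6a2, Atp5g1 and Cox7a1 was not tested.

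**Figure D4:**
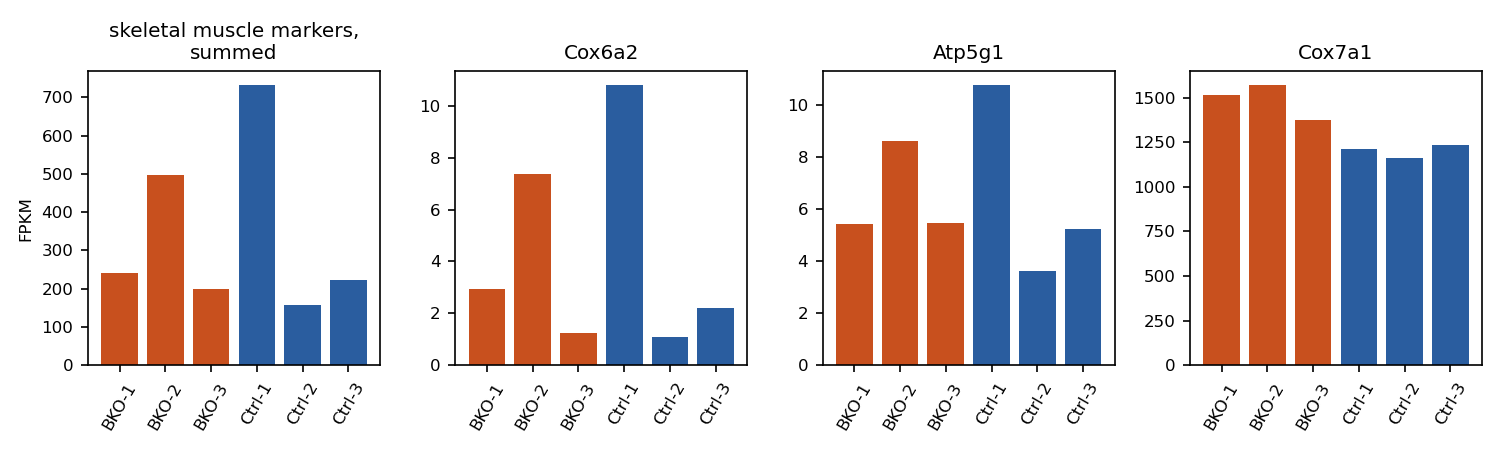
Summed FPKM of the 15 listed skeletal muscle markers, and FPKM of Cox6a2, Atp5g1 and Cox7a1, with 1 bar per library, each panel on its own linear axis in FPKM. Ctrl-1 and BKO-2 are the highest libraries in the first 3 panels. In the Cox7a1 panel the 3 BKO bars (1372 to 1568 FPKM) stand above the 3 Ctrl bars (1161 to 1233 FPKM). The part of skeletal muscle RNA in these values was not tested.

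Cox4i1, the ubiquitous form of the regulatory subunit 4, had 1732, 1950 and 1757 FPKM in the BKO libraries, against 1793, 1670 and 1659 FPKM in the Ctrl libraries. Cox4i2, known as the lung and oxygen-responsive form, had 3.43, 2.84 and 2.58 FPKM in BKO, against 3.06, 2.12 and 1.88 FPKM in Ctrl, and its groups overlapped (log2 difference 0.25, adjusted p = 0.641). The log2 ratio of Cox4i2 to Cox4i1 differed by 0.16 (exact two-sided permutation p = 0.4), by between 0.043 (without BKO-1) and 0.27 (without Ctrl-1) with a library left out, and by 0.029 with a pseudocount of 5 FPKM. Cox4i2 was at most 0.198% of the pair. Cox6b1, which lies between the partners of a complex IV dimer, had 2141, 2457 and 2078 FPKM in BKO, against 2276, 2136 and 2148 FPKM in Ctrl. Its values overlapped, with BKO-2 highest and BKO-3 lowest. Cox4nb, no subunit of complex IV, had 8.06, 7.83 and 6.77 FPKM in BKO, against 8.17, 8.15 and 8.65 FPKM in Ctrl, all BKO values below all Ctrl values (log2 difference -0.13, adjusted p = 0.668).

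The remaining complex IV genes, Cox5a, Cox5b, Cox6c, Cox7b and Cox7c, averaged between 789 and 1848 FPKM over the 6 libraries, and their log2 differences lay between -0.06 (Cox7b) and 0.11 (Cox7c). Cox6b2, the testis form of subunit 6B, averaged 6.39 FPKM, with a log2 difference of 0.22 (adjusted p = 0.731). Cox7a2l had 134 ± 8.80 FPKM in BKO and 130 ± 9.68 FPKM in Ctrl (SD, n = 3 each). The groups overlapped for each of these 7 genes.

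ATP synthase genes ranged more widely in level. The 14 abundant ones averaged between 226 FPKM (Atp5j) and 2481 FPKM (Atp5b), an 11-fold range. Over the 16 tested genes with an ATP synthase symbol, the pseudogene Atp5l-ps1 included, 12 log2 differences were positive and 4 negative, with a median of 0.04. No gene of the complex passed the test. The BKO means of the abundant genes differed from the Ctrl means by between -3.88% (Atp5g3) and 12.8% (Atp5j2).

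Atp5b and Atp5a1 encode the beta and alpha subunits of the catalytic head. Atp5b had 2492, 2632 and 2409 FPKM in the BKO libraries, against 2548, 2450 and 2353 FPKM in the Ctrl libraries (log2 difference 0.03, adjusted p = 0.931). Atp5a1 had 1344, 1428 and 1277 FPKM in BKO, against 1414, 1372 and 1380 FPKM in Ctrl (log2 difference -0.04, adjusted p = 0.896). In both genes BKO-2 was the highest library and the groups overlapped. Atp5c1, the gamma subunit that turns inside the head, had 445, 513 and 469 FPKM in BKO, against 508, 486 and 480 FPKM in Ctrl, with a log2 difference of -0.05.

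Atp5g1, Atp5g2 and Atp5g3 encode the same subunit c, which forms the rotating ring in the membrane, and differ in the part that directs the protein into the mitochondrion. Atp5g2 had 241, 288 and 234 FPKM in the BKO libraries, against 259, 250 and 240 FPKM in the Ctrl libraries. Atp5g3 had 253, 285 and 225 FPKM in BKO, against 283, 268 and 243 FPKM in Ctrl, close to Atp5g2 in every library. The log2 ratio of Atp5g2 to Atp5g3 differed by 0.08 (exact two-sided permutation p = 0.2). Atp5g1 was far lower, with 5.42, 8.62 and 5.48 FPKM in BKO, against 10.8, 3.64 and 5.26 FPKM in Ctrl, and Ctrl-1 and BKO-2 were its highest libraries, as for the muscle markers. Its log2 ratio to Atp5g3 differed by 0.14 (exact two-sided permutation p = 0.8). Reads could be split between the 3 genes by the authors' counting where their transcripts are alike, which was not compared.

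Among the membrane part and the stalk, Atp5k had 1513, 1682 and 1288 FPKM in the BKO libraries, against 1472, 1357 and 1342 FPKM in the Ctrl libraries. Atp5k, subunit e, takes part in joining ATP synthase dimers, and BKO held both its highest and its lowest value. Atp5j2, subunit f, had 716, 820 and 672 FPKM in BKO, against 666, 648 and 643 FPKM in Ctrl. Every BKO library lay above every Ctrl library, with a log2 difference of 0.17 (95% interval -0.04 to 0.38, adjusted p = 0.587). Atp5h, subunit d of the stalk, which was named after its values were seen, had 598, 712 and 639 FPKM in BKO, against 595, 573 and 590 FPKM in Ctrl, a log2 difference of 0.14 (adjusted p = 0.623). With each library scaled to a sum of 1000000 the differences were -0.03 for Atp5j2 and -0.05 for Atp5h.

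The remaining subunits, Atp5d, Atp5e, Atp5f1, Atp5j, Atp5l and Atp5o, averaged between 226 and 964 FPKM, with log2 differences between -0.01 (Atp5f1) and 0.11 (Atp5e), and their groups overlapped. Atp5l-ps1, a pseudogene of Atp5l, had 2.65, 2.31 and 1.98 FPKM in BKO, against 0.979, 1.07 and 2.19 FPKM in Ctrl. The groups overlapped through Ctrl-3, and the log2 difference was 0.49 (SE 0.193, adjusted p = 0.454). Atp5l, its parent gene, stood at 964 FPKM, and reads could be shared between the pair, so the pseudogene's value is uncertain. Atp5l2, which was not tested, had 1.803, 0.451 and 0.859 FPKM in BKO, against 1.01, 0.282 and 1.44 FPKM in Ctrl. Atp5sl, named after its values were seen, had 32.6, 32.2 and 33.7 FPKM in BKO, against 30.5, 30.3 and 30.6 FPKM in Ctrl, which did not overlap (log2 difference 0.10, adjusted p = 0.621). Atp5s had 8.14 ± 0.865 FPKM in BKO and 8.61 ± 0.782 FPKM in Ctrl (SD, n = 3 each).

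The abundant genes shared a pattern over the libraries that cut across the groups. Of the 38 genes, 33 had their highest value in BKO-2, 2 in BKO-3, 2 in Ctrl-1 and 1 in Ctrl-2. A total of 19 had their lowest value in BKO-3. The pattern held in each complex: BKO-2 was highest for 8 of 9 complex III genes, 10 of 12 complex IV genes and all 14 ATP synthase genes, and BKO-3 was lowest for 6 genes of each. Measured as the deviation from a gene's mean over the 6 libraries on the log2(FPKM + 1) scale, the median over the 38 genes was -0.02 in BKO-1, 0.14 in BKO-2 and -0.08 in BKO-3, against 0.02 in Ctrl-1, and -0.03 and -0.05 in the other two Ctrl libraries, Ctrl-2 and Ctrl-3. All 38 genes lay above their mean in BKO-2. The SD was larger in BKO than in Ctrl for 35 of the 38. How many of all genes share these traits was not counted. BKO-2 was also the highest library for most, but not all, nuclear genes of the neighbouring complex I. Nothing particular to complexes III, IV and ATP synthase is therefore read from this pattern.

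Summed over all 46 genes, the level was 38084, 42267 and 36435 FPKM in the BKO libraries, against 38625, 36918 and 36841 FPKM in the Ctrl libraries. As a share of all FPKM outside the mitochondrial tRNA genes, this was 6.39%, 6.88% and 5.07% in BKO, against 6.73%, 6.58% and 6.37% in Ctrl. BKO-2 held the highest share and BKO-3 the lowest. The part of library scaling in this spread was not tested.

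**Figure D5:**
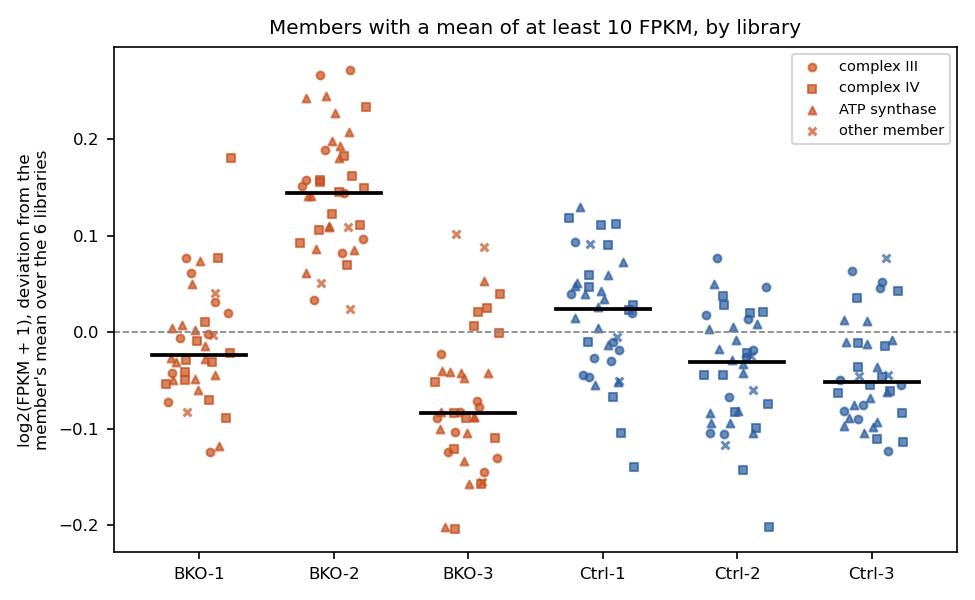
Deviation of log2(FPKM + 1) from the gene's mean over the 6 libraries, for the 38 genes that averaged 10 FPKM or more, 1 point per gene and library. Black bars are medians: 0.14 in BKO-2 and -0.08 in BKO-3, with the other libraries between -0.05 and 0.02.

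Genes that assemble, support or regulate these complexes were listed by name, and none of them passed limma's test in either direction. At an unadjusted p below 0.05, 1 complex III assembly factor was lower, 1 complex IV assembly gene was higher and 2 were lower, 1 ATP synthase assembly gene was lower, 1 complex I gene was higher and 1 lower, and 1 regulator was lower. Over all genes tested 6.63% were higher and 3.52% lower at that threshold, and nothing particular to these lists is read from the counts. Of the complex III assembly factors, 4 were listed (Bcs1l, Lyrm7, Ttc19 and Uqcc), all 4 with negative log2 differences and a median of -0.17. Bcs1l, which inserts the Rieske protein, had 13.8, 13.7 and 12.4 FPKM in BKO, against 15.6, 14.8 and 15.4 FPKM in Ctrl. All BKO values lay below all Ctrl values, as they did for Ttc19 and Uqcc and for 6.82% of all genes tested, and the adjusted p of Bcs1l was 0.438 at a log2 difference of -0.19.

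Of 19 listed complex IV assembly and associated genes, 9 log2 differences were positive and 10 negative, with a median of -0.02. Cox17, the copper chaperone of the complex, had 448, 470 and 426 FPKM in BKO, against 403, 357 and 389 FPKM in Ctrl (log2 difference 0.23, adjusted p = 0.412). Surf1, an assembly factor, had 37.1, 37.1 and 36.3 FPKM in BKO, against 47.9, 39.9 and 40.5 FPKM in Ctrl (log2 difference -0.21, adjusted p = 0.475). Lrpprc, which stabilizes mitochondrial mRNAs, had 29.9, 29.3 and 32.9 FPKM in BKO, against 35.4, 33.5 and 35.4 FPKM in Ctrl (log2 difference -0.18, adjusted p = 0.468). In these 3 genes the groups did not overlap, Cox17 being higher in BKO and the others lower. That is 1 higher and 2 lower of the 19, against 9.06% and 6.82% of all genes tested. Nothing particular to the list is read from these counts. Ndufa4, counted with complex IV, averaged 1743 FPKM in BKO and 1737 FPKM in Ctrl.

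Of 6 listed ATP synthase assembly and regulation genes, 4 log2 differences were positive and 2 negative, with a median of 0.08. Tmem70, needed for the assembly of the enzyme, had 77.6, 77.1 and 73.8 FPKM in BKO, against 81.5, 86.4 and 90.1 FPKM in Ctrl (log2 difference -0.17, adjusted p = 0.441). Its groups did not overlap. Those of Atpaf2, an assembly factor, did not either, but with BKO higher: 85.9, 87.6 and 85.4 FPKM in BKO, against 82.7, 80.4 and 79.6 FPKM in Ctrl. That is 1 higher and 1 lower of the 6, against 9.06% and 6.82% of all genes tested. Among the neighbouring complexes, 28 of 37 nuclear complex I genes had positive and 9 negative log2 differences, with a median of 0.05. Ndufa5 was the complex I gene that was higher at an unadjusted p below 0.05, with 471, 541 and 442 FPKM in BKO, against 418, 382 and 418 FPKM in Ctrl (adjusted p = 0.436). Ndufs1 was the lower one, with 226, 228 and 225 FPKM in BKO, against 253, 251 and 245 FPKM in Ctrl (adjusted p = 0.484). All 4 complex II genes had negative log2 differences, with a median of -0.03.

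The 14 listed regulators of mitochondrial gene expression had 7 positive and 7 negative log2 differences. Ppargc1a, the coactivator that drives mitochondrial biogenesis in brown fat, had 12.8, 38.4 and 28.4 FPKM in BKO, against 11.7, 9.62 and 38.7 FPKM in Ctrl, with both groups spread over the same range. Esrra, a nuclear receptor that works with it, had 56.2, 60.2 and 51.2 FPKM in BKO, against 54.0, 52.8 and 55.9 FPKM in Ctrl. Ppara, a receptor for fatty acids, had 34.1, 31.0 and 45.2 FPKM in BKO, against 50.2, 51.0 and 41.5 FPKM in Ctrl (log2 difference -0.37, adjusted p = 0.454), and its groups overlapped.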

How the data were processed

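Per the submitters' processing notes, the authors used CASAVA 1.8, TopHat2 2.0.12 and Cufflinks 2.2.1 with build NCBIM37. Options and annotation are not stated in the labels. The table the authors deposited holds FPKM, which they had scaled for length of the transcript and size of the library. These are no counts, a count model was therefore not fitted, and the depth is unknown. Columns were matched to samples through the names given in the labels' descriptions, which call the BKO libraries WT and the Ctrl libraries MT, and Bscl2 checked the assignment.

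The 11397 genes that averaged 1 FPKM or more were tested on log2(FPKM + 1) with limma 3.58.1 (R 4.3.3), using a trend on intensity, no covariate and Benjamini-Hochberg adjustment over all of them at 0.05. For genes of low level, differences on this scale come out too small. Ratios of isoforms within a library were compared with an exact two-sided permutation test. Reads of near-identical copies could be split by the authors' counting. Only the limma step was run on simulated data, with changes larger than those of the abundant members. It therefore cannot show whether differences as small as theirs would be found. The permutation tests were not simulated.

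The members and lists were chosen with earlier results of these data known. Values in every library were given for isoform pairs, the 2 most abundant genes and the 2 largest differences in each direction per complex, members at an unadjusted p below 0.05, a few core subunits and members not tested. Genes of the other lists, and Cidea, were named after their values were seen. Protein sequences were planned but not used here, and promoter windows were taken from RefSeq on GRCm38.p6, another build than the authors' table. All 46 genes were matched to RefSeq genes and 34 had a window. Alternatives were other pseudocounts, filters and scalings, no trend, library weights, the replicate number as a block, a skeletal muscle score as covariate and leaving out each library. Rescaling to the members' median and leaving out symbol matches that are no subunits were chosen after seeing the data.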

Additional observations from a re-analysis of the deposited data

How the results depend on the processing

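None of the 45 tested members passed an adjusted p of 0.05 under any alternative run. The 2 members higher at an unadjusted p below 0.05 were 1 with genes of at least 10 FPKM, 1 with median ratio rescaling, 0 with quantile normalization, 0 with a sum of 1000000, 3 without the intensity trend, 3 with library weights (Cox8b joining in both), 1 with the replicate block, 1 with the muscle covariate and, among the alternatives chosen after seeing the data, 1 with libraries rescaled to the members' median and 1 without symbol matches that are no subunits. They ranged from 1 to 5 when a library was left out, with 5 without BKO-3 (Atp5j2, Atp5l-ps1, Cox7a1, Cox8b and Uqcrh). With each library scaled to a sum of 1000000, the median of all genes shifted by -0.15 and the medians were -0.19 for complex III, -0.14 for complex IV and -0.16 for ATP synthase. In BKO-3 that sum is made up mainly of mitochondrial tRNA genes. The ratio of Cox6a2 to Cox6a1 was -0.068 and that of Cox8b to Cox8a -0.083 under quantile normalization. Leaving out a library moved Cox6a2 to Cox6a1 between -0.46 and 0.74 and Atp5g1 to Atp5g3 between -0.17 and 0.46. The cause was not tested. The log2 difference of Cox7a1 stayed positive, between 0.11 and 0.34 over alternatives and between 0.26 and 0.36 with a library left out, with adjusted p between 0.0989 (library weights) and 1. Of 803 values of single members under alternatives, 82, over 34 members, differed in sign from the value reported, none of them called.

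Over all genes tested, 18 were higher and 1 lower at an adjusted p below 0.05. These were 6 and 1 with genes of at least 10 FPKM, 31 and 9 with a sum of 1000000, 48 and 6 with library weights, 23 and 2 with the replicate block, 8 and 1 with the muscle covariate, and between 5 (without BKO-1) and 41 (without BKO-3) higher and between 1 and 3 lower with a library left out.

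The replicate numbers were not taken as pairs in the main test. The correlations of same-numbered deviations were 0.20, -0.10 and -0.10, and those of differently numbered ones lay between -0.13 and 0.22. These values cannot tell whether any BKO and Ctrl libraries shared a batch. With the replicate block, Cox7a1 had an adjusted p of 0.440.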
